A study of Mus musculus with 9 samples.

Results

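The genes described here encode the subunits and activators of the proteasome and the enzymes that hand ubiquitin to its targets, measured in mouse lens, cornea and tendon. Members were the probe sets whose single annotated symbol begins with Psma, Psmb, Psmc, Psmd, Psme or Ube2, without the immunoproteasome subunits Psmb8, Psmb9 and Psmb10. Where a gene had several probe sets, the one with the highest 9-array mean stood for it. This gave 60 genes, 39 Psm and 21 Ube2, of the 8252 genes with 1 symbol on the array. Of them 51 (37 Psm and 14 Ube2) passed the filter on low values, which asked for at least the array median on 2 arrays or more, and 43 reached it on all 9 arrays. The other 9 genes, Psmc4, Psmd10, Ube2a, Ube2c, Ube2e3, Ube2f, Ube2t, Ube2v2 and Ube2w, were too low and were not tested. Psmc3ip and Psme3ip1 share the prefix but are no proteasome subunits. They are kept apart in the class counts below but are included in all totals of Psm genes and of members.

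The proteasome is a barrel of alpha and beta rings, with the protein-cutting sites on the inside of the beta rings, capped by a regulatory particle. The ATPase ring of that particle unfolds substrates, and its other subunits bind ubiquitin chains and remove them. Ubiquitin passes from an activating enzyme to a conjugating enzyme, encoded by the Ube2 genes, and from there to the target through a ligase. The lens is built from fibre cells that lose their organelles, and the ubiquitin system is known to be active while they differentiate.

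The 9 arrays held 2 preparations of lens and 2 of flexor digitorum longus tendon from mice of 7 weeks, 3 of cornea from mice of the same age (adult cornea) and 2 of cornea from postnatal day 10 (P10). Lenses and tendons were pooled for each preparation, and corneas were scraped to lessen the epithelium. The labels name no genotype, strain or treatment. The design text calls the preparations independent but does not say how many animals each held, so p-values measure only the spread between these preparations.

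The deposited value is a linear expression index per probe set in arbitrary units, and the number of arrays limits its precision. Marker lists followed the labels, with exceptions that touch the results below. The summed index of 8 lens markers was 34410 to 35680 in lens, 4722 to 8576 on the corneal arrays and 460 to 539 in tendon, where Cryba1 and Crybb2 were at or below 0. That of 12 corneal epithelium markers was 24550 to 26850 in cornea of both ages and 1053 to 3646 in lens and tendon, with Aldh3a1 at or below 0 in tendon, so epithelial RNA remained after scraping. That of 16 skeletal muscle markers was 55350 to 65630 in tendon and 600 to 1321 elsewhere, where in lens Mb alone was at or below 0. That of 9 tendon and fibroblast markers was 37900 to 41550 in tendon, 19550 to 19810 in P10 cornea, 7279 to 8275 in adult cornea and 416 to 774 in lens. Adult cornea replicate 1 stood apart in its 3′ to 5′ ratio for Gapdh, 2.25 against 0.831 to 1.04 on the other arrays, and for actin, 4.69 against 1.07 to 2.07.

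No single comparison called more than a minority of these genes, and in lens against the others the calls ran in both directions. With limma, at an adjusted p under 0.05, 10 members were higher and 6 lower in lens than in tendon, where 22.6% and 26.4% of all 8154 tested probe sets were called. Against adult cornea 9 members were higher and 7 lower in lens, with 24.0% and 27.2% of all probe sets called. Against P10 cornea 9 were higher and 8 lower, beside 19.4% and 31.6%. Called members of either direction thus made up 31.4%, 31.4% and 33.3% of the 51, and 49.0%, 51.2% and 51.0% of all tested probe sets, for tendon, adult cornea and P10 cornea. As all samples are bulk tissue, fewer cells of a type and less RNA per cell cannot be told apart in any of these differences.

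Between cornea and tendon fewer members were called. Adult cornea had 4 members higher and 3 lower than tendon, where 16.1% and 18.9% of all probe sets were called. P10 cornea had 4 higher, among them Psme3ip1, and 1 lower, beside 15.7% and 11.0%. Between adult and P10 cornea limma called 0 members higher and 0 lower, beside 0.699% and 3.88% of all probe sets, and 2 members had an unadjusted p under 0.05. Those were Ube2d3 (-0.63 on the log2 scale, adult minus P10, adjusted p = 0.281 by limma) and Psmc2 (0.75, adjusted p = 0.315).

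Most differences were small. Folds here are on the log2(index + 16) scale, which understates those of low genes. In lens against each other tissue 43 or 44 of the 51 members differed by less than 2-fold (84.3% to 86.3%), as did 64.3% to 66.1% of all tested probe sets. The median size of the log2 difference was 0.48, 0.39 and 0.48 for members against tendon, adult cornea and P10 cornea, and 0.68, 0.64 and 0.71 for all. The signed medians of the members were 0.22, -0.06 and -0.09, and those of all probe sets -0.07, -0.08 and -0.25. With median centring the members' median against P10 cornea turned to 0.15. Lens was the tissue with the highest mean for 18 members and with the lowest for 20, while tendon was highest for 8 and lowest for 17. The shares for lens, 35.3% and 39.2%, were near those of all probe sets, 31.2% and 40.8%, as was that lowest in tendon, 33.3% beside 29.1%. Tendon was highest for 15.7% of members and 27.0% of all.

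**Figure D1:**
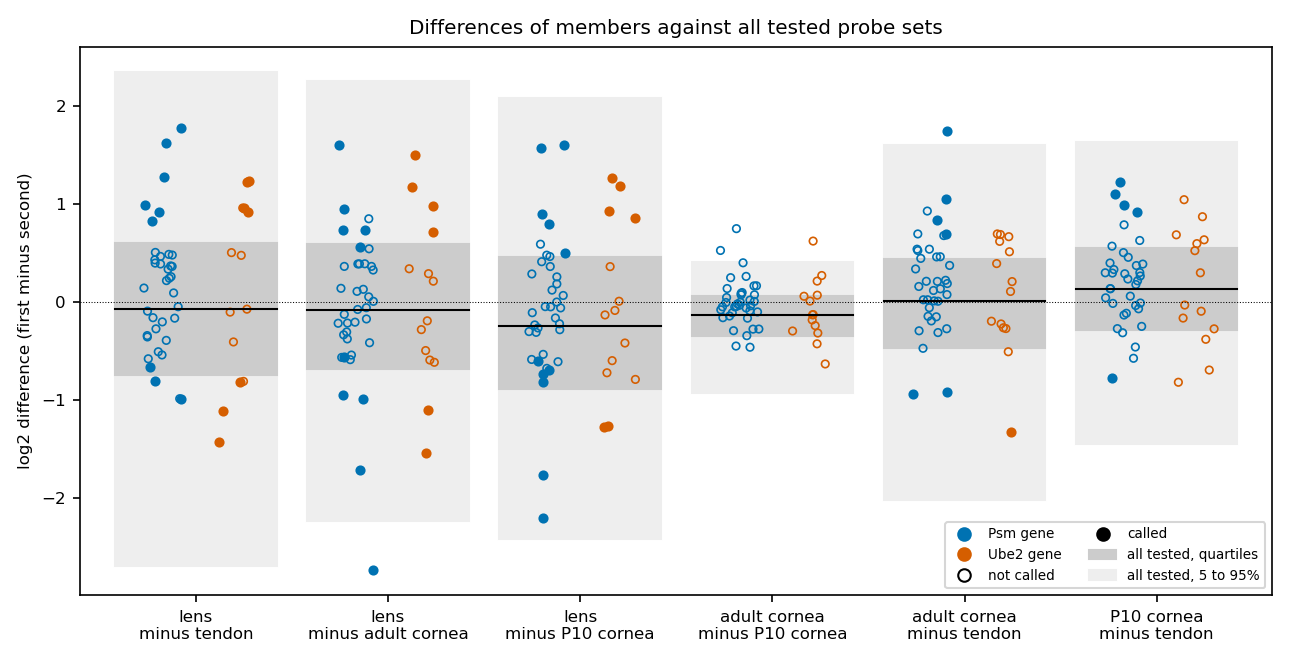
Log2 differences of the 51 tested members in the 6 comparisons (Psm genes blue, Ube2 genes orange; filled points passed limma's adjusted p), over the quartiles and the 5 to 95% range of all 8154 tested probe sets (grey; the line is their median). Most members lie within 1 log2 unit of 0, and no point is filled between adult and P10 cornea.

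The split between higher and lower members moved with the scaling of the arrays. With median centring it became 12 higher and 4 lower both for lens against tendon and for lens against P10 cornea. Of all 8154 tested probe sets, median centring called 2056 higher and 1978 lower against tendon, and 2071 and 1914 against P10 cornea. For adult cornea against tendon the split became 9 higher and 3 lower under all 3 other scalings, beside 1449 to 1586 and 1451 to 1506 of all probe sets. For P10 cornea against tendon it became 5 and 3 with quantile normalisation, 5 and 2 with trimmed means and 3 and 2 with median centring. Over all probe sets these called 1238 and 1130, 1264 and 1001, and 989 and 1180. Several counts also rested on single arrays. The 6 members lower in lens than in tendon became 1 without lens replicate 2, 2 without either tendon array and 3 without either P10 array. Against adult cornea the 9 higher became 5 without lens replicate 1, and the 7 lower became 3 without lens replicate 2 and 15 without adult cornea replicate 3. Against P10 cornea the 9 higher became 5 without lens replicate 1 or P10 replicate 2, and the 8 lower became 3 without lens replicate 2 and 4 without either P10 or either tendon array. The 4 higher in adult cornea than in tendon became 11 without adult cornea replicate 3, 2 without adult cornea replicate 1 or tendon replicate 2 and 1 without tendon replicate 1, and the 3 lower became 1 without either tendon array. For P10 cornea against tendon, the 4 higher became 7 without adult cornea replicate 3, 1 without P10 replicate 1 or tendon replicate 2 and 0 without P10 replicate 2 or tendon replicate 1. The 1 lower in that comparison became 2 without adult cornea replicate 3 and 0 without any other array outside lens, by limma, beside 11 members with an unadjusted p under 0.05 in either direction when all arrays were used.

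The members moved together between replicates of the same tissue. In lens, 48 of the 51 lay above their group mean on replicate 1, by a median of 0.26 on the log2 scale, beside a median of 0.08 and 65.5% above for all tested probe sets. On adult cornea replicate 3 only 8 of the 51 lay above their group mean, and the median deviation was -0.29, beside -0.01 for all probe sets. On P10 replicate 1, 41 members (80.4%) lay above, with a median of 0.11, beside 57.1% and 0.02 for all probe sets. On tendon replicate 2, 43 (84.3%) lay above, with a median of 0.08, beside 66.0% and 0.04, so part of the shift was shared by the whole array. The part of this shared shift in the counts above was not tested beyond leaving out each array.

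**Figure D2:**
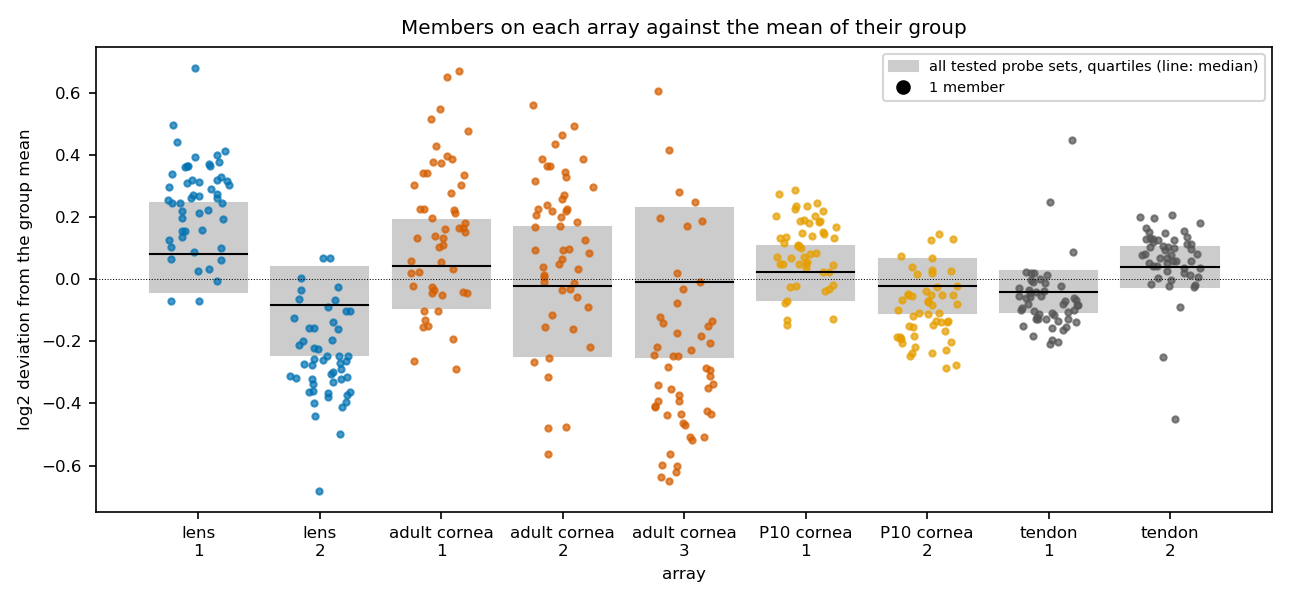
Deviation of each tested member from its group mean on log2(index + 16), by array (points), over the quartiles of all tested probe sets (grey; the line is their median). Members sit high on lens replicate 1, where 48 of 51 lie above 0, and low on adult cornea replicate 3, where 8 do.

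**Figure D3:**
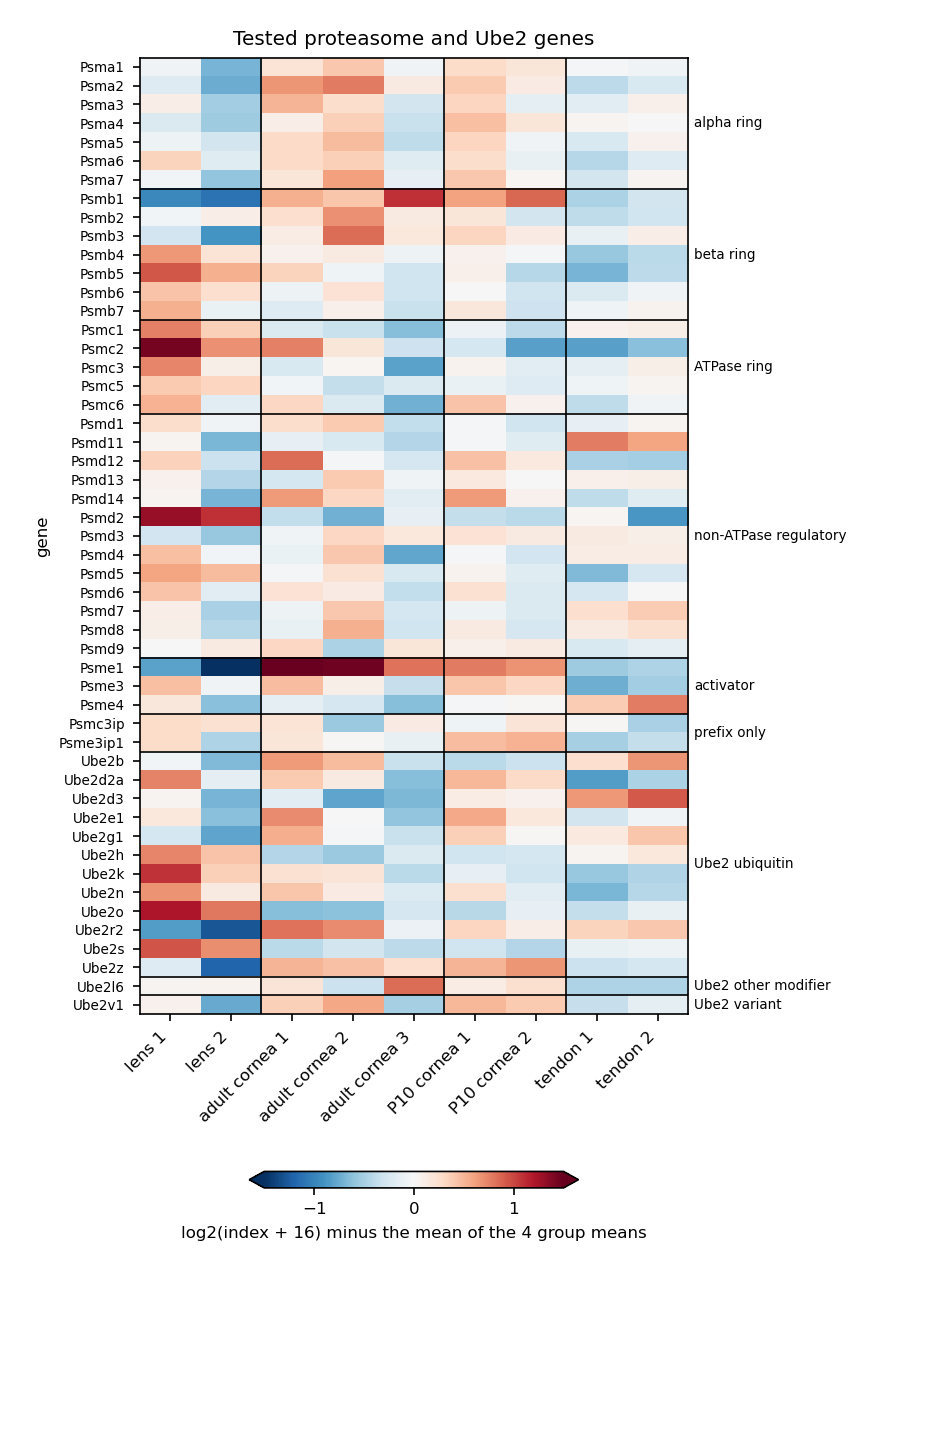
Log2(index + 16) of the 51 tested members (by class, top to bottom) on the 9 arrays, each gene minus the mean of its 4 group means. Psmd2, Psmc2 and Ube2o are darkest red in lens, Psme1, Psmb1 and Ube2r2 darkest blue there, and the colours of adult cornea replicate 3 run lower than those of the other adult corneas.

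Promoters of 49 of the 60 genes matched the RefSeq table (GRCm38.p6), as 58 windows from 250 bases before to 50 after a gene's start, 36 of Psm and 22 of Ube2 genes. The core of the antioxidant response element, TGACNNNGC, known to be bound by factors that raise proteasome genes, was present on either strand in 8 of the 58 windows (13.8%) and in 12.4% of all 32851 windows. Its Psm genes were Psmb5, Psmb6, Psmc6, Psmd12, Psmd9 and Psme4. CCAAT, the box of NF-Y, was in 19 member windows (32.8%) beside 37.4% of all, and TTTGAA, the cell cycle homology region, in 7 (12.1%) beside 17.9%. No member window held overlapping matches of TGACNNNGC and CCAAT. The 250 bases before the start are shown for Psmb5 and Psmd2, high in lens, and for Psme1, low in lens. Also shown are Psma2, high in cornea, and Psme4, high in tendon. Sequences run 5′ to 3′ on the strand of the gene, with matches of the 3 motifs in capitals.
Psmb5, chr14:54617996-54618245, minus strand: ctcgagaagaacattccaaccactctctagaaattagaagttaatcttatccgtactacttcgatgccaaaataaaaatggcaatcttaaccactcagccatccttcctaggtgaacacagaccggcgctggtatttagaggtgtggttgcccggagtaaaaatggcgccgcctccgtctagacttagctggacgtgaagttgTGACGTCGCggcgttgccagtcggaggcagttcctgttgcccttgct
Psmd2, chr16:20651402-20651651, plus strand: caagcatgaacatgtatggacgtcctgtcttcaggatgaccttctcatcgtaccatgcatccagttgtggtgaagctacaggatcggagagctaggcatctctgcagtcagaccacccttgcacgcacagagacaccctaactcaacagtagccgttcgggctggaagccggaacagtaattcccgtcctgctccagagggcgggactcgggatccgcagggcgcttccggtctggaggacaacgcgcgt
Psma2, chr13:14612992-14613241, plus strand: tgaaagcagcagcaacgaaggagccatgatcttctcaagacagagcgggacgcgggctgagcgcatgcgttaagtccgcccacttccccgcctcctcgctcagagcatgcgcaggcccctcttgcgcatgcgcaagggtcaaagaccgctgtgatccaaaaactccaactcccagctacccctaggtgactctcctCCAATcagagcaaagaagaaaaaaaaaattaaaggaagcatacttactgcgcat
Psme1, chr14:55578244-55578493, plus strand: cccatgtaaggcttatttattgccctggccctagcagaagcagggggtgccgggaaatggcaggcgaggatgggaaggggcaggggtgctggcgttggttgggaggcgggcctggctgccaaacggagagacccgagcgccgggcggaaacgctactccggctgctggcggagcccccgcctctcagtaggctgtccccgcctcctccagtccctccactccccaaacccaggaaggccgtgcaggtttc
Psme4, chr11:30771525-30771774, plus strand: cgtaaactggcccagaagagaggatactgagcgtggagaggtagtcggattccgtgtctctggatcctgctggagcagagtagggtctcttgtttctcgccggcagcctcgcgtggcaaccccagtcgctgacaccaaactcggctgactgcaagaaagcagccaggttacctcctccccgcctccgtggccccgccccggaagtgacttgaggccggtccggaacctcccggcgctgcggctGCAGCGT
The capitals are TGACGTCGC in Psmb5, which begins 47 bases before the start, CCAAT in Psma2, 54 bases before it, and GCAGCGT in Psme4, 7 bases before it. The last are the first letters of GCAGCGTCA, the motif read on the other strand, whose final letters lie past the start and are not shown. The sequences of Psmd2 and Psme1 hold none of the 3 motifs in this window. A match describes letters and does not show binding.

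In the alpha ring, whose subunits gate entry into the barrel, few members were called. By limma 1 of 7 (14.3%) was lower in lens than in adult cornea and 2 of 7 (28.6%) lower than in P10 cornea, at or below the 27.2% and 31.6% of all probe sets called lower. Its 7 tested members had a median log2 difference of -0.41 against adult cornea, none of them above 0, of -0.53 against P10 cornea, and of -0.16 against tendon. All probe sets had medians of -0.08, -0.25 and -0.07. The medians of the alpha, beta and ATPase rings kept their sign in the lens comparisons under quantile, trimmed mean and median scaling. Psma2 was lower in lens than in both corneas and Psma4 lower than in P10 cornea, and 0 of 7 were called against tendon by limma, with 0 at an unadjusted p under 0.05. The index of Psma2 was 419 and 281 in lens, 769, 841 and 529 in adult cornea, 639 and 527 in P10 cornea, and 363 and 409 in tendon. Every corneal array was thus above every lens and tendon array, while lens and tendon overlapped. The log2 difference of lens from adult cornea was -0.995 (SE 0.25, limma adjusted p = 0.0075) and from P10 cornea -0.73 (SE 0.27, adjusted p = 0.0462). Psma2 was also higher in adult cornea than in tendon, by 0.83 (SE 0.25, limma adjusted p = 0.025). Without lens replicate 2 the lens differences had limma adjusted p-values of 0.0795 and 0.266, the difference from P10 cornea missed the threshold without 6 of the 9 arrays or with median centring (0.161), and that from tendon without either tendon array (0.167 and 0.0902) or without adult cornea replicate 1 or 2 (0.0762 and 0.0615).

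Psma4 had an index of 205 and 162 in lens, 259, 313 and 188 in adult cornea, 336 and 275 in P10 cornea, and 248 and 240 in tendon. Lens lay below P10 cornea by -0.69 (SE 0.26, limma adjusted p = 0.0449) and below adult cornea by -0.41, which was not called (adjusted p = 0.162). The call was lost without 7 of the 9 arrays, among them P10 replicate 1 (limma adjusted p = 0.228) and lens replicate 2 (0.207), and under all 3 other scalings (0.0532 to 0.191). Psma3, another subunit of the ring, ranged from 359 to 751 over the 9 arrays without a call in any comparison. Psma1, Psma5, Psma6 and Psma7 were not called in any comparison either.

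The beta ring, which carries the cutting sites, went both ways in lens. Psmb5, the subunit with chymotrypsin-like activity, was higher in lens than in all 3 other tissues. Psmb4, a structural subunit, was higher in lens than in tendon. Psmb3 was lower in lens than in both corneas, and Psmb1 gave opposite directions by probe set. Psmb6 and Psmb7, which carry the caspase-like and trypsin-like sites, were not called in any comparison. The median log2 difference of the 7 tested beta members in lens was 0.36 against tendon, 0.36 against adult cornea and 0.29 against P10 cornea.

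The index of Psmb5 was 412 and 309 in lens, 268, 199 and 168 in adult cornea, 221 and 152 in P10 cornea, and 122 and 155 in tendon. Both lens arrays exceeded every other array, and P10 cornea overlapped both adult cornea and tendon. Lens was above tendon by 1.28 (SE 0.28, limma adjusted p = 0.00356), above adult cornea by 0.74 (SE 0.25, adjusted p = 0.0336) and above P10 cornea by 0.90 (SE 0.28, adjusted p = 0.0209). The difference from P10 cornea missed the threshold without lens replicate 1 (limma adjusted p = 0.118) or P10 replicate 2 (0.16), and that from adult cornea without 5 of the 9 arrays, among them lens replicate 1 (0.198). The other Psmb5 probe set was 114 and 135 in lens and 77.2 to 135 elsewhere, with overlap, and over the mean of both the differences from P10 and adult cornea were not called (limma adjusted p = 0.0779 and 0.0519).

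Psmb4 read 1206 and 879 in lens, 793, 837 and 718 in adult cornea, 798 and 742 in P10 cornea, and 507 and 569 in tendon. Lens did not overlap any other tissue, and the difference from tendon was 0.92 (SE 0.20, limma adjusted p = 0.00405). All 3 of its probe sets had their highest values in lens. Psmb3 read 337 and 215 in lens, 445, 747 and 464 in adult cornea, 522 and 453 in P10 cornea, and 381 and 442 in tendon. Both lens arrays were the lowest of the 9. The difference was -0.95 from adult cornea (SE 0.27, limma adjusted p = 0.0136) and -0.82 from P10 cornea (SE 0.29, adjusted p = 0.0408). Without lens replicate 2 these had adjusted p-values of 0.135 and 0.254 by limma, and the second also missed the threshold without either P10 or either tendon array and with median centring (0.139). Psmb2 was higher in adult cornea (303, 414 and 276) than in tendon (189 and 201), by 0.70 (SE 0.23, limma adjusted p = 0.0357), and this call was lost without either tendon array (0.193 and 0.136) or without adult cornea replicate 1 or 2 (0.0595 and 0.0712).

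Psmb1 has 3 probe sets that disagree, so its direction belongs to the probe set and not to the gene. The one with the highest mean read 367 and 334 in lens, 1070, 985 and 1591 in adult cornea, 1121 and 1347 in P10 cornea, and 525 and 604 in tendon. By it lens was lowest, at -1.72 from adult cornea (SE 0.22, limma adjusted p = 0.000139), -1.77 from P10 cornea (SE 0.25, adjusted p = 0.000243) and -0.66 from tendon (SE 0.25, adjusted p = 0.0465). The last call was lost without 7 of the 9 arrays, among them tendon replicate 2 (limma adjusted p = 0.211) and lens replicate 2 (0.154), and with median centring (0.0522), no filter (0.0538), a pseudocount of 64 (0.0573) or a constant variance prior (0.0532). Another probe set read 388 and 364 in lens and 65.7 to 232 on all other arrays, so that lens was highest. The remaining one read 656 and 479 in lens and 576 to 1004 elsewhere, with overlap. Limma called 1 probe set lower and 1 higher in each of the 3 lens comparisons. Over the mean of the 3, lens minus tendon turned to 0.35 (limma adjusted p = 0.195), and the differences from adult and P10 cornea were not called (0.119 and 0.301). By the probe set with the highest mean, both corneas were above tendon, by 1.06 (SE 0.22, limma adjusted p = 0.00445) for adult cornea and 1.10 (SE 0.25, adjusted p = 0.00842) for P10 cornea. The first was lost without tendon replicate 1 (limma adjusted p = 0.0562), and the second without tendon replicate 1 (0.0776), without P10 replicate 2 (0.0746) and over the mean of the probe sets (0.053).

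**Figure D4:**
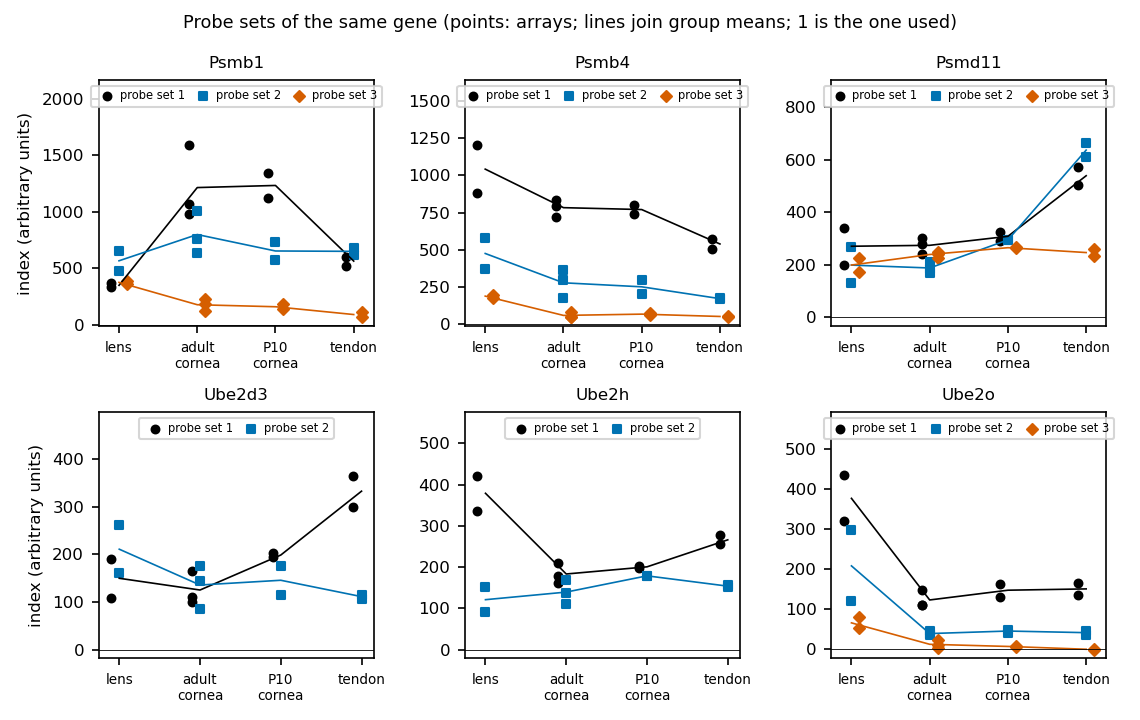
Expression index (arbitrary units) of every probe set of 6 members by tissue (points are arrays, lines join group means; probe set 1 is the one used). The Psmb1 probe sets run in opposite directions in lens, those of Psmb4 and Ube2o all peak in lens, and of Psmd11, Ube2d3 and Ube2h at least 1 probe set does not follow the one used.

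In the ATPase ring, which unfolds substrates, the calls in lens were all higher but few against tendon. By limma 1 of 5 tested members (20.0%) was higher in lens than in tendon and 3 of 5 (60.0%) than in each cornea, where 22.6%, 24.0% and 19.4% of all probe sets were called higher against tendon, adult cornea and P10 cornea. All 5 tested members had a positive log2 difference from tendon and from adult cornea, with medians of 0.43 and 0.74, and 4 of 5 from P10 cornea, with a median of 0.50, Psmc6 lying at -0.06. Called were Psmc2 against tendon, Psmc1, Psmc3 and Psmc5 against adult cornea, and Psmc1, Psmc2 and Psmc5 against P10 cornea. None was called lower in lens, and Psmc6 was called in no comparison. The index of Psmc2 was 704 and 411 in lens, 433, 285 and 199 in adult cornea, 205 and 135 in P10 cornea, and 135 and 156 in tendon. Lens overlapped adult cornea but was above all P10 and tendon arrays, by 1.78 from tendon (SE 0.37, limma adjusted p = 0.00262) and 1.60 from P10 cornea (SE 0.37, adjusted p = 0.00503). Both calls held without any single array.

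Psmc1 read 250 and 187 in lens, 120, 110 and 85.1 in adult cornea, 133 and 105 in P10 cornea, and 149 and 152 in tendon. Both lens arrays were above the other 7, and the difference was 0.95 from adult cornea (SE 0.21, limma adjusted p = 0.00381) and 0.79 from P10 cornea (SE 0.23, adjusted p = 0.0164), the second lost without P10 replicate 2 (0.122) or lens replicate 1 (0.0958). Psmc5 read 738 and 704 in lens and 431 to 576 on the other arrays. Its lens values were above adult cornea by 0.56 (SE 0.17, limma adjusted p = 0.021) and above P10 cornea by 0.50 (SE 0.19, adjusted p = 0.0488). The first was lost without either lens array (0.0644 and 0.0503) and with quantile normalisation (0.112), and the second without 7 of the 9 arrays, among them P10 replicate 2 (limma adjusted p = 0.203). Psmc3 read 723 and 458 in lens and 365, 439 and 240 in adult cornea, a difference of 0.74 (SE 0.28, limma adjusted p = 0.0469) that missed the threshold without 7 of the 9 arrays, among them lens replicate 1 (0.315). Psmc4, not tested, read 58.8 and 91.0 in lens and 23.0 to 48.3 elsewhere.

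Among the other regulatory subunits Psmd2 stood out in lens. Psmd2, the scaffold on which ubiquitin receptors dock, read 340 and 294 in lens, 95.5, 71.7 and 116 in adult cornea, 97.2 and 93.5 in P10 cornea, and 132 and 63.1 in tendon. Both lens arrays were above all others by a wide gap, and the other 3 tissues overlapped. Mean levels were 317 ± 32.8 (SD, n = 2) in lens, 94.5 ± 22.3 (n = 3) in adult cornea, 95.4 ± 2.60 (n = 2) in P10 cornea and 97.3 ± 48.4 (n = 2) in tendon. Lens was higher by 1.62 than tendon (SE 0.30, limma adjusted p = 0.00143), by 1.61 than adult cornea (SE 0.28, adjusted p = 0.000843) and by 1.58 than P10 cornea (SE 0.30, adjusted p = 0.00188), about 3-fold each. All 3 calls held without any single array and under every other limma setting.

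Psmd5, an assembly chaperone of the regulatory particle, read 297 and 271 in lens, 160 to 226 in adult cornea, 199 and 167 in P10 cornea, and 115 and 157 in tendon. It was higher in lens than in tendon by 0.99 (SE 0.23, limma adjusted p = 0.00549), a call lost without tendon replicate 1 (0.0674). Psmd3, a structural subunit, was lowest in lens, at 154 and 124, beside 184 to 241 on the 7 other arrays. It differed from adult cornea by -0.56 (SE 0.19, limma adjusted p = 0.0298) and from P10 cornea by -0.60 (SE 0.21, adjusted p = 0.0334). These calls were lost without 6 and 5 of the 9 arrays, among them lens replicate 2 (limma adjusted p = 0.162 and 0.153), and with median centring (0.0523 and 0.192). Psmd4, a ubiquitin receptor, Psmd7 and Psmd14, the deubiquitinating subunit, were called in no comparison. Of the 13 tested Psmd members 2 were higher (15.4%) and 1 lower (7.7%) in lens than in tendon. Against each cornea 1 was higher and 1 lower (7.7% each). Of all probe sets 22.6%, 24.0% and 19.4% were called higher against tendon, adult cornea and P10 cornea, and 26.4%, 27.2% and 31.6% lower. All probe sets had medians of -0.07, -0.08 and -0.25, and the Psmd members medians of 0.09, -0.06 and -0.05. The last turned to 0.03 with trimmed means and 0.19 with median centring.

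Psmd11, a subunit known to stabilise the assembled proteasome, was highest in tendon. It read 574 and 505 in tendon, 342 and 201 in lens, 303, 280 and 241 in adult cornea, and 327 and 291 in P10 cornea. Both tendon arrays were above all others. The difference of lens from tendon was -0.995 (SE 0.26, limma adjusted p = 0.00906), that of adult cornea -0.94 (SE 0.23, adjusted p = 0.0108) and that of P10 cornea -0.77 (SE 0.26, adjusted p = 0.0494). A second probe set read 612 and 663 in tendon and 131 to 296 elsewhere, while the third, at 233 and 262 in tendon and 172 to 267 elsewhere, overlapped. The call against lens was lost without lens replicate 2 (limma adjusted p = 0.0602) or tendon replicate 1 (0.0699), that against adult cornea without either tendon array (0.101 and 0.0511), and that against P10 cornea without 6 of the 9 arrays. The tendon arrays also carried the skeletal muscle markers given above, and the part of muscle RNA in the higher Psmd11, Psme4 and Ube2d3 was not tested.

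The activators, which dock on the barrel in place of the regulatory particle, each had a pattern of their own. Psme1 encodes the alpha subunit of the interferon-inducible activator. It read 86.6 and 23.9 in lens, 484, 478 and 300.0 in adult cornea, 291 and 270.1 in P10 cornea, and 108 and 114 in tendon. The arrays fell into an order without overlap, adult cornea above P10 cornea above tendon above lens. Lens was lower than adult cornea by -2.74 (SE 0.36, limma adjusted p = 0.000143), a 6.68-fold difference, and lower than P10 cornea by -2.21 (SE 0.39, adjusted p = 0.00119). Neither the step from lens to tendon (-0.99, limma adjusted p = 0.0611) nor that between the corneas was called. Psme1 was higher than in tendon by 1.75 in adult cornea (SE 0.36, limma adjusted p = 0.00362) and by 1.22 in P10 cornea (SE 0.39, adjusted p = 0.0435).

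The first 3 of these 4 Psme1 calls held without any single array, and the last was lost without either P10 array (limma adjusted p = 0.177 and 0.13), without either tendon array (0.185 and 0.146), without adult cornea replicate 1 (0.0556), and with median centring (0.0584). A second Psme1 probe set read 1.47 to 14.1 on all arrays, and over the mean of both the last call was also lost (0.106). The immunoproteasome subunits that work with this activator were left out of the members by rule, and in group means all 3 were lowest in lens and highest in adult cornea, though the Psmb9 means of lens, P10 cornea and tendon were nearly equal (40.4, 40.5 and 41.9). Psmb8 read -6.90 and -25.8 in lens, 385, 338 and 210 in adult cornea, 99.0 and 82.2 in P10 cornea, and 59.3 and 66.6 in tendon. Among 14 interferon response genes the summed index was 584 to 920 in lens, 2520 to 4374 in adult cornea, 2709 to 2789 in P10 cornea and 5027 to 5563 in tendon. Counted gene by gene the order differed. Of its 9 tested genes 4 were higher and 1 lower in adult cornea than in tendon by limma, with a median log2 difference of 0.60, and 1 was higher and 2 lower in P10 cornea than in tendon, with a median of 0.35. In lens 7 of the 9 were lower than in adult cornea, 6 lower than in P10 cornea, and 2 higher and 4 lower than in tendon. Its part in the Psme1 values, and that of the epithelial markers of the cornea, was not tested.

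Psme4, the large nuclear activator, read 204 and 273 in tendon, 174 and 93.2 in lens, 137, 126 and 93.1 in adult cornea, and 151 and 156 in P10 cornea. Tendon was above all others. The difference from tendon was -0.81 in lens (SE 0.29, limma adjusted p = 0.0419) and -0.92 in adult cornea (SE 0.27, adjusted p = 0.022), and P10 cornea was not called. The lens call was lost without 6 of the 9 arrays, among them lens replicate 2 (limma adjusted p = 0.297), and the adult call without either tendon array (0.0545 and 0.19). Psme3, the activator of the nucleus that does not depend on interferon, was low on all arrays, at 32.0 and 39.7 in tendon, 93.0 and 61.4 in lens, 94.6, 68.7 and 47.0 in adult cornea, and 90.7 and 82.9 in P10 cornea. Tendon was the lowest tissue. Lens was higher than tendon by 0.83 (SE 0.28, limma adjusted p = 0.0344), a call lost without 5 of the 9 arrays, among them lens replicate 1 (0.198) and tendon replicate 1 (0.168). So was P10 cornea by 0.99 (SE 0.28, limma adjusted p = 0.0278), a call lost without either P10 (0.147 and 0.0975) or either tendon array (0.17 and 0.0859).

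**Figure D5:**
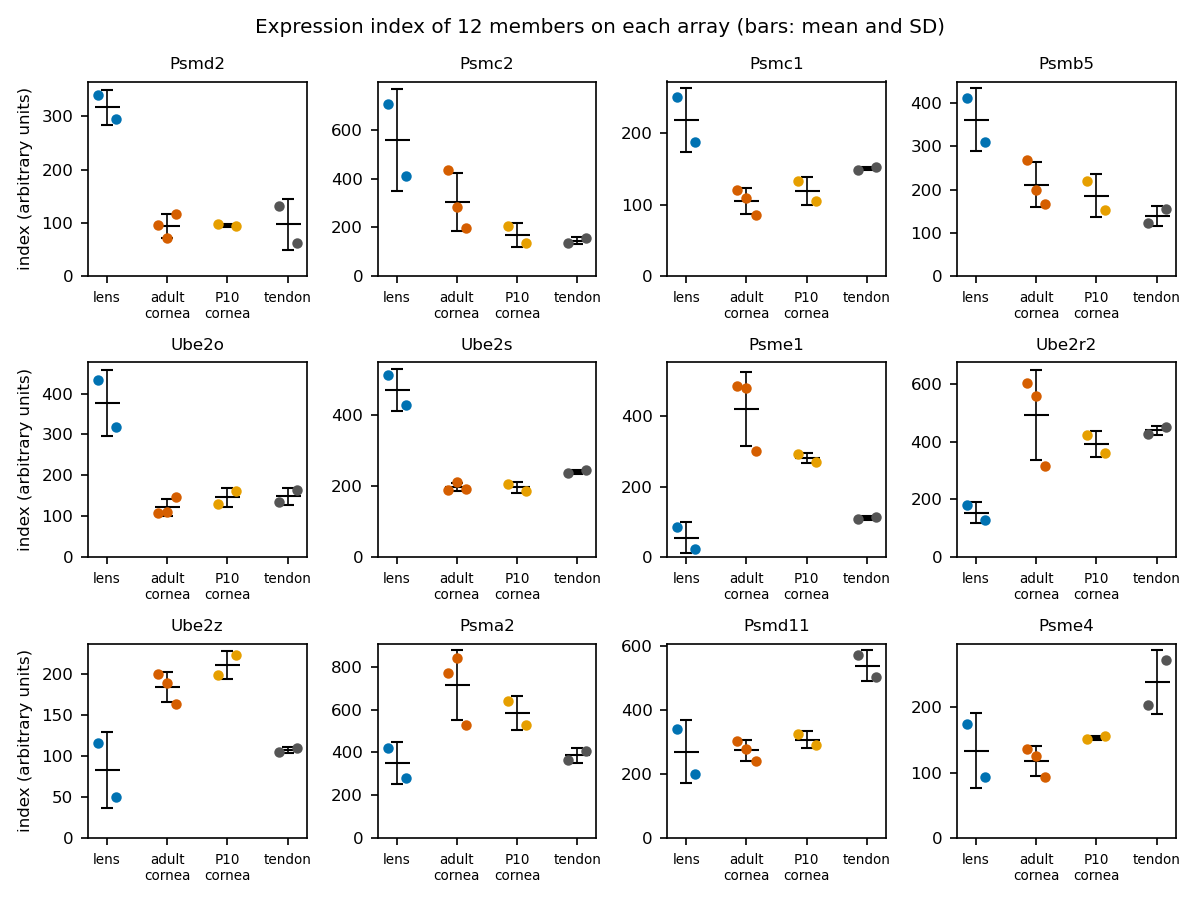
Expression index (arbitrary units) of 12 members on each array by tissue, with the mean and SD of each group (2 arrays, 3 in adult cornea). Psmd2, Psmc1, Psmb5, Ube2o and Ube2s are highest on both lens arrays, Psme1 and Ube2r2 are lowest there, and Psmd11 and Psme4 are highest on both tendon arrays.

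The 14 tested Ube2 genes went both ways in lens. Of them 4 were higher and 3 lower than in tendon, and 4 higher and 2 lower than in each cornea. The higher share was 28.6% each time, beside 22.6%, 24.0% and 19.4% of all probe sets against tendon, adult cornea and P10 cornea, and the lower shares were 21.4%, 14.3% and 14.3%, beside 26.4%, 27.2% and 31.6%. Ube2o and Ube2s were higher in lens in all 3 comparisons, as was Ube2k, while Ube2h was higher than in both corneas and Ube2n than in tendon. Ube2r2 was lower in lens in all 3 comparisons, Ube2z than in both corneas, and Ube2d3 and Ube2g1 than in tendon. The median log2 difference of the 14 was 0.20 against tendon, 0.01 against adult cornea and -0.11 against P10 cornea. The last turned to 0.07 with quantile normalisation and 0.13 with median centring, and that against adult cornea to -0.02 with quantile normalisation and -0.04 with trimmed means.

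Ube2o, a large enzyme that conjugates ubiquitin without a separate ligase and is known from maturing red cells, read 434 and 320 in lens, 109, 110.3 and 147 in adult cornea, 130.0 and 163 in P10 cornea, and 135 and 164 in tendon. Both lens arrays were above all others, and the rest overlapped. Lens was higher by 1.24 than tendon (SE 0.24, limma adjusted p = 0.0018), by 1.51 than adult cornea (SE 0.22, adjusted p = 0.000284) and by 1.27 than P10 cornea (SE 0.24, adjusted p = 0.00175). These calls held without any single array and under every other limma setting. The 2 other Ube2o probe sets were also highest in lens, at 297 and 118 against 33.5 to 47.7 and at 50.4 and 78.5 against -2.65 to 21.1. The summed index of 6 red blood cell markers on the array was 784 to 875 in lens, 831 to 1271 in adult cornea, 2058 to 2943 in P10 cornea and 2382 to 2414 in tendon. Of the 4 tested, limma called 2 higher and 2 lower in lens than in tendon and than in P10 cornea, and 2 higher and 1 lower than in adult cornea. The part of red cell RNA in the Ube2o values was not tested.

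Ube2s, which extends ubiquitin chains for the anaphase-promoting complex, read 513 and 428 in lens, 191, 211 and 193 in adult cornea, 207 and 186 in P10 cornea, and 237 and 244 in tendon. Lens stood above the other tissues on both arrays, with a mean of 470.2 ± 59.8 (SD, n = 2). It was higher by 1.18 than adult cornea (SE 0.18, limma adjusted p = 0.000352), by 1.19 than P10 cornea (SE 0.19, adjusted p = 0.000686) and by 0.92 than tendon (SE 0.19, adjusted p = 0.00301). The summed index of 18 cell division markers was 1965 to 2025 in lens, 2400 to 3542 in cornea and 1463 to 1507 in tendon, where Rrm2 was at or below 0. Of the 14 tested, limma called 4 higher and 1 lower in lens than in tendon, 3 and 7 than in adult cornea, and 3 and 9 than in P10 cornea. Their part in the Ube2s values was not tested. Ube2c, which starts the chains that Ube2s extends, was not tested and read 42.7 and 41.5 in lens and 16.1 to 73.9 elsewhere.

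Ube2k, which builds chains that mark proteins for the proteasome, read 329 and 193 in lens, 175, 171 and 107 in adult cornea, 134 and 117 in P10 cornea, and 94.0 and 104 in tendon. Lens was above the other arrays, though replicate 2 only just so. Lens was higher by 1.23 than tendon (SE 0.29, limma adjusted p = 0.0059), by 0.71 than adult cornea (SE 0.27, adjusted p = 0.047) and by 0.93 than P10 cornea (SE 0.29, adjusted p = 0.0234). Without lens replicate 1 the adjusted p-values from limma were 0.0526 for tendon and 0.166 for P10 cornea, and the latter was also lost without either P10 array (0.0701 and 0.114). The call against adult cornea was lost without 6 of the 9 arrays, among them lens replicate 1 (limma adjusted p = 0.358). The second Ube2k probe set read 140 and 131 in lens and 66.9 to 98.3 elsewhere. By it the difference of lens from tendon was 0.51 and not called (limma adjusted p = 0.0667). Those from adult cornea (0.61, limma adjusted p = 0.0225) and P10 cornea (0.68, adjusted p = 0.0205) were called. Ube2h, which serves a multi-subunit ligase of maturing red cells, read 421 and 336 in lens, 178, 162 and 210 in adult cornea, 198 and 203 in P10 cornea, and 255 and 277 in tendon. Lens was higher than adult cornea by 0.985 (SE 0.19, limma adjusted p = 0.00175) and than P10 cornea by 0.86 (SE 0.21, adjusted p = 0.00691). The second Ube2h probe set read 151 and 90.8 in lens and 111 to 179 elsewhere, and over the mean of both the differences from adult and P10 cornea were not called (limma adjusted p = 0.106 and 0.546).

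Ube2n, which builds chains used in signalling and repair, read 490 and 332 in lens and 181 and 220 in tendon, a difference of 0.96 (SE 0.28, limma adjusted p = 0.0162) that was lost without lens replicate 1 or tendon replicate 1 (0.11 each). In adult cornea it read 260.1 to 408 and in P10 cornea 267 and 360, both overlapping lens. Ube2v1, its catalytically inactive partner, was called in no comparison. It read 236 and 126 in lens, 293, 344 and 154 in adult cornea, 322 and 300 in P10 cornea, and 173 and 202 in tendon. The partners thus had different orders of group means, with Ube2n highest in lens and Ube2v1 highest in P10 cornea.

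Ube2r2, which works with cullin ligases, read 181 and 129 in lens, 603, 557 and 315 in adult cornea, 422 and 359 in P10 cornea, and 427 and 450 in tendon. Both lens arrays were below all others. Adult cornea overlapped P10 cornea and tendon, and tendon lay just above P10 cornea. Lens was lower than tendon by -1.43 (SE 0.31, limma adjusted p = 0.00317), than adult cornea by -1.54 (SE 0.28, adjusted p = 0.00116) and than P10 cornea by -1.26 (SE 0.31, adjusted p = 0.00646). The last of these missed the threshold without lens replicate 2 (limma adjusted p = 0.0572), while the others held without any single array. Ube2z, which takes ubiquitin from the activating enzyme Uba6, read 115 and 49.9 in lens, 199, 188 and 163 in adult cornea, 198 and 222 in P10 cornea, and 105 and 110 in tendon. Lens and tendon overlapped below both corneas. Lens was lower than adult cornea by -1.10 (SE 0.27, limma adjusted p = 0.00653) and than P10 cornea by -1.28 (SE 0.29, adjusted p = 0.00497). The first was lost without lens replicate 2 and over the mean of the 2 Ube2z probe sets (limma adjusted p = 0.0589). The second Ube2z probe set read 118 and 93.2 in lens and 77.6 to 141 elsewhere, and lens overlapped adult cornea. By it neither difference was called (limma adjusted p = 0.797 for adult and 0.263 for P10 cornea).

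Ube2d3, a broadly used conjugating enzyme, was highest in tendon by the probe set used, at 300 and 365, beside 191 and 109 in lens, 165, 100.1 and 110 in adult cornea, and 202 and 195 in P10 cornea. The difference from tendon was -1.11 in lens (SE 0.29, limma adjusted p = 0.01) and -1.33 in adult cornea (SE 0.27, adjusted p = 0.0033). Its second probe set read 107 and 116 in tendon, below both lens arrays (261 and 161), and over the mean of both neither difference was called (limma adjusted p = 0.691 and 0.136). The difference between lens and tendon was also lost without lens replicate 2 (0.0874) or tendon replicate 2 (0.0784). Ube2g1, which acts in degradation from the endoplasmic reticulum, read 152 and 100.6 in lens and 208 and 255 in tendon. That difference of -0.82 (SE 0.31) stood at the threshold, with a limma adjusted p of 0.05 after rounding, and was lost without 6 of the 9 arrays, among them lens replicate 2 (0.27) and tendon replicate 2 (0.228).

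The members not tested had low values on most arrays, and some of them read higher in lens. Ube2e3 read 57.4 and 60.0 in lens and 7.11 to 20.4 elsewhere, and Ube2f, which conjugates NEDD8, 61.9 and 83.4 in lens and 10.2 to 55.2 elsewhere. Psmd10, Ube2t and Ube2w stayed between 0.816 and 42.9 on all arrays. Of the genes that share only the prefix, Psmc3ip, a recombination factor, was called in no comparison. Psme3ip1, which binds the activator of Psme3, was higher in P10 cornea (180.2 and 187) than in tendon (84.4 and 94.5), by 0.92 (SE 0.25, limma adjusted p = 0.0221), a call lost without any P10 or tendon array (0.0868 to 0.144).

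The other genes of the pathway were called in both directions, and in each comparison the share called in either direction was below that of all probe sets. Of 74 tested genes for ubiquitin and its activation, ligases, deubiquitinating enzymes and proteasome assembly or shuttling, 19 were higher and 17 lower in lens than in tendon, 16 and 14 than in adult cornea, and 14 and 20 than in P10 cornea. Between adult and P10 cornea limma called 0 of the 74. Adult cornea had 9 higher and 8 lower than tendon, and P10 cornea 9 and 5. In either direction 48.6%, 40.5% and 45.9% of the 74 were called in lens against tendon, adult cornea and P10 cornea, beside 49.0%, 51.2% and 51.0% of all probe sets. By list, lens against tendon had 1 higher and 1 lower of 7 genes for ubiquitin-like proteins and activating enzymes, 10 and 5 of 31 ligase genes, 6 and 5 of 20 deubiquitinating enzymes, and 2 and 6 of 16 assembly and shuttle genes.

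The largest neighbour differences exceeded those of the members in lens. Usp15, a deubiquitinating enzyme, read 1200 and 1080 in lens and 88.8 to 196 on the other arrays, a difference of 3.07 from tendon (SE 0.29, limma adjusted p = 1.4e-05). Traf6, a ligase that works with Ube2n, read 525 and 499 in lens and 49.1 to 70.02 elsewhere, and Btrc, a substrate receptor of a cullin ligase, 276 and 283 beside 26.9 to 48.4. In the other direction Itch, a ligase, read 57.1 and 52.6 in lens and 385 to 993 elsewhere. Nfe2l2, an activator of proteasome genes under oxidative stress, read 65.4 and 46.7 in lens and 153 to 232 elsewhere, and was lower in lens than in tendon by -1.28 (SE 0.23, limma adjusted p = 0.000963), than adult cornea by -1.56 (SE 0.21, adjusted p = 0.000147) and than P10 cornea by -1.71 (SE 0.23, adjusted p = 0.000169). Usp10 and Usp7, deubiquitinating enzymes, were lower in lens than in both corneas.

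Tendon had its own high genes in these lists. Usp2, a deubiquitinating enzyme, read 408 and 416 in tendon and 58.4 to 133 elsewhere. Sqstm1, a receptor that carries ubiquitinated proteins to autophagy, read 599 and 515 beside 104 to 280. Nfe2l1, the factor that raises proteasome genes when the proteasome is impaired, read 521 and 603 in tendon, 270 and 148 in lens, 282, 308 and 232 in adult cornea, and 247 and 271 in P10 cornea. It was lower than in tendon by -1.41 in lens (SE 0.27, limma adjusted p = 0.00174), by -1.001 in adult cornea (SE 0.25, adjusted p = 0.0107) and by -1.07 in P10 cornea (SE 0.27, adjusted p = 0.0163). Sumo3 was higher in tendon than in all 3 other tissues. Cdc20, the activator of the complex that Ube2s serves, Sae1, an activating enzyme of SUMO, and the deubiquitinating enzymes Usp10 and Usp1 were among those higher in cornea than in tendon, Usp10 in both corneas and Usp1 in P10 cornea. Of these cornea and tendon calls, those of Usp10 and Nfe2l1 in both corneas were lost without either tendon array, and Sumo3 in P10 cornea likewise. Those of Sae1 in adult and P10 cornea were lost without 6 and 5 of the 9 arrays, those of Sqstm1 without tendon replicate 1, and that of Usp1 without tendon replicate 1 or P10 replicate 1. The summed skeletal muscle markers were highest in tendon, like Usp2, Sqstm1, Nfe2l1 and Sumo3, while the genes higher in cornea ran the other way. The part of muscle RNA in any of these values was not tested.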

How the data were processed

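Each deposited intensity is a linear expression index of a probe set. According to the design text the authors ran Microarray Suite 5.0 for detection calls, then dChip, which normalises arrays on an invariant set and fits a model-based index. The submitters' processing notes name MAS5 alone. The sources used here leave the program behind the deposited values, and the genome build, unstated.

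Of 12488 probe sets 66 controls were left out. Analysis used log2 of the index plus 16, with negative values raised to 0. Tested were the 8154 probe sets that reached the array median on 2 or more of the 9 arrays. Values under -100 occurred in 87 of these and in 0 members. One model with a mean per group was fitted to the 9 arrays with limma 3.58.1 in R 4.3.3 (mean-dependent prior, 5 residual and 4.933 prior degrees of freedom). It was tested on simulated data with the spreads of these arrays, with 100 probe sets changed by 2-fold and 100 by 4-fold per comparison. Over the comparisons 28% to 51% of the 2-fold and 84% to 95% of the 4-fold changes were recovered. Far more probe sets were called in these data, 26.7% to 51.2% in all comparisons but adult against P10 cornea (4.57%). With few changes the adjusted threshold is stricter, so the simulated recovery does not carry over to those comparisons. In lens against tendon 44 of the 51 members differed by less than 2-fold, and 7 that differed by 2-fold or more were called. P-values were two-sided and Benjamini-Hochberg adjusted over all tested probe sets within a comparison. The trimmed means of the arrays lay within a ratio of 1.171, so no further scaling was applied. Symbols came from GEO's platform annotation, and all 60 matched the reference gene table, with 0 changed. A further 5 probe sets carried several symbols and were left out.

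Members and lists were chosen with earlier results of these data known. Setting Psme3ip1 apart was decided after the annotation was seen. Named were the 6 called members with the largest rise and the 6 with the largest fall in each comparison, the 2 of each class with the highest mean, up to 3 called neighbour genes each way per comparison and members whose probe sets disagree. Others are named as examples of a class or list and were chosen after their values were seen. Alternatives covered pseudocount, filter, scaling, the variance prior, the arrays fitted, the probe set rule, a replicate block, leaving out each array and the methods' t-test. In a fit that leaves a group with 1 array, that array is assumed to vary like the other groups.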

Additional observations from a re-analysis of the deposited data

How the results depend on the processing

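Under the 3 other scalings the medians of the members' log2 differences moved by less than the spread over arrays (0.237). The largest move was for lens minus P10 cornea, from -0.085 to 0.149 with median centring. This does not cover the fits that left out 1 array. On lens replicate 1 the median deviation of the members from their group mean was 0.264. Of 48 named calls 22 held in all 9 fits that left out 1 array and 18 under every limma setting, and 1 reversed, Psmb1 for lens minus tendon over the mean of its probe sets (0.346). Those 48 were the member calls with the largest changes in each comparison. The remaining member calls are not in these counts. Of them, in lens, only Psmb4 and Ube2s against tendon and Ube2h against P10 cornea held without any single array. The methods' t-test asked for at least 2-fold, a difference of at least 100 and an unadjusted p under 0.05. By it the counts, higher and lower, were 3 and 1 for lens against tendon, 3 and 3 against adult cornea and 3 and 2 against P10 cornea. They were 2 and 1 for adult cornea against tendon and 2 and 0 for P10 cornea against tendon. After Benjamini-Hochberg they were 1 and 0, 3 and 1, 1 and 0, 1 and 1, and 1 and 0. The shares of all probe sets called by this t-test are not given here. These counts therefore do not show whether members were called more or less often than other genes. Between adult and P10 cornea every alternative gave 0. Fitting only the groups compared gave 5 higher in lens than adult cornea, and 12 higher and 6 lower in P10 cornea than tendon. The latter had 2 higher over the mean of probe sets, and 0 lower with no filter or a pseudocount of 1.

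Scaling moved the median of all tested probe sets for lens minus P10 cornea from -0.25 to -0.09 with quantile normalisation, -0.17 with trimmed means and -0.01 with median centring, for adult minus P10 cornea from -0.13 to 0.03, -0.01 and 0.06, and for P10 cornea minus tendon from 0.13 to 0.01, 0.07 and -0.02. Calls among the members became 12 higher and 4 lower for lens against P10 cornea with median centring, beside 2071 and 1914 of all 8154 probe sets. They became 9 higher and 3 lower for adult cornea against tendon under all 3 scalings, beside 1449 to 1586 and 1451 to 1506 of all. For P10 cornea against tendon they became 5 and 3 with quantile, 5 and 2 with trimmed mean and 3 and 2 with median centring. Over all probe sets these called 1238 and 1130, 1264 and 1001, and 989 and 1180. Higher calls over all probe sets were 38.0% for lens against P10 cornea and 52.0% after median centring, 15.3% for adult against P10 cornea and 26.7% to 29.2% after scaling, and 58.7% for P10 cornea against tendon and 45.6% after median centring.

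Leaving out 1 array gave 7 to 12 higher and 1 to 9 lower for lens against tendon, 5 to 10 and 3 to 15 against adult cornea, 5 to 10 and 3 to 11 against P10 cornea, 1 to 11 and 1 to 4 for adult cornea against tendon, and 0 to 7 and 0 to 2 for P10 cornea against tendon. Same-numbered arrays of different tissues had correlations of their deviations between -0.363 and 0.201. In a group of 2 arrays the deviations mirror each other, so these correlations cannot show whether the numbers link preparations. With a replicate block, in which adult cornea replicate 3 has a number of its own and drops out, 12 members were lower in lens than adult cornea, 11 higher in adult cornea than tendon, and 7 higher and 2 lower in P10 cornea than tendon. The cause of these changes was not tested.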
